A study of Homo sapiens with 24 samples.

Results

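Expression of 10 genes of the tumor necrosis factor (TNF) receptor family with roles in B cells was followed in both lymphoma cell lines. The members were TNFRSF11A, TNFRSF13B, TNFRSF13C, TNFRSF17, TNFRSF8, TNFRSF14, CD40, CD27, CD70 and FAS. They were taken by gene symbol from a table of 25575 rows and 25161 symbols, and each member had 1 row. SU-DHL-4 is a cell line of diffuse large B-cell lymphoma (DLBCL). DG-75 is a Burkitt lymphoma (BL) cell line. Both lines were exposed for 72 h to DMSO as control, to 1 µM Entospletinib (Ento), an inhibitor of the kinase SYK, to 0.01 µM AZD5153 (AZD), a bivalent inhibitor of BET proteins, or to Ento+AZD at the same doses. The 8 groups held 3 Clariom D arrays each, 24 in all, described by the submitters as biological triplicates. Values are RMA-normalized and on a log2 scale, so that a difference of 1 is a 2-fold change. A gene was called where the Benjamini-Hochberg adjusted p of limma over all 25575 rows was under 0.05 and the change was over 2-fold. Each DMSO group served 3 comparisons in its line, so changes against DMSO share their control arrays. Each condition rests on 1 cell line per lymphoma type, and 3 arrays per group limit the precision of every value.

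TNF receptors are cell surface proteins that bind trimeric ligands of the TNF family. Most of them recruit TRAF adaptors and activate NF-kB transcription factors, while receptors with a death domain can start apoptosis through FADD and caspase 8. In B cells, TNFRSF13C (BAFF-R), TNFRSF13B (TACI) and TNFRSF17 (BCMA) bind the survival cytokines BAFF and, for the latter pair, APRIL. CD40 receives help from T cells in the germinal center. CD27 marks germinal center and memory B cells and binds CD70, the member of the group that is itself a ligand. TNFRSF8 (CD30) appears on activated lymphocytes, TNFRSF14 (HVEM) engages the inhibitory receptor BTLA, TNFRSF11A (RANK) is best known from osteoclasts, and FAS is a death receptor with a role in the removal of germinal center B cells.

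Promoter sequence was read from RefSeq for the members that the reference table held, as windows from 250 bases before to 50 bases after a transcription start on build GRCh38.p14. 6 of the 10 members had a window. The kB consensus, the motif bound by NF-kB, was searched by its letters on both strands and occurred in 2 of 8 member windows, 1 of TNFRSF14 and 1 of the FAS windows, against 3956 of 35116 windows in all (11.3%). Such a match describes the letters only, and binding was not measured. The stretch of the FAS window that holds the motif is shown with the motif in capitals, since FAS was the windowed member with a kB match that differed between the lines. The bases before the CD27 start are shown because CD27 had the largest difference between the lines among the 10 members, and those before the TNFRSF13B start because it was the windowed member with an adjusted p under 0.05 between exposures. The whole window of CD27 had a GC content of 48% and that of TNFRSF13B 57.3%, beside a median of 58.7% over all windows.
FAS, chr10:88991264-88991293, plus strand: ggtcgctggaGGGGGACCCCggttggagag
CD27, chr12:6443642-6443891, plus strand: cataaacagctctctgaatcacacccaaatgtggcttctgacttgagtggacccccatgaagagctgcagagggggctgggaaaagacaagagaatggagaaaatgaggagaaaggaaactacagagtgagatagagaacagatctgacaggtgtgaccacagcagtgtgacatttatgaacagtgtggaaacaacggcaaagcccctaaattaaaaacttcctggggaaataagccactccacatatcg
TNFRSF13B, chr17:16972119-16972368, minus strand: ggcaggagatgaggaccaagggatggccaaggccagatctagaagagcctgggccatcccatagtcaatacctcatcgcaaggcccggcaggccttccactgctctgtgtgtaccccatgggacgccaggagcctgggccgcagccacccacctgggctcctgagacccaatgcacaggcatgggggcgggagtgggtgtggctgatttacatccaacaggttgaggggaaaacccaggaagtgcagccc

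Array medians lay between 4.89 and 5.14 and replicate arrays correlated at 0.981 to 0.992 across rows. The cells carried B cell markers, with an array mean over 5 markers (MS4A1, CD79A, CD79B, PAX5, CD22) of 10.46 to 11.06 in SU-DHL-4 and 8.88 to 9.8 in DG-75. Markers of T cells (CD3D, CD3E, CD3G, CD2), NK cells (NKG7, KLRD1, NCAM1) and monocytes (CD14, CSF1R, LYZ, FCGR3A) had array means of 2.49 to 3.04, 3.3 to 3.83 and 3.93 to 4.44, and 4 plasma cell markers had 4.31 to 4.8 in SU-DHL-4 and 5.32 to 5.73 in DG-75. MS4A1, which encodes CD20, was lower in DG-75 by 4.45 under DMSO (adjusted p of limma 2.43e-12). In these bulk samples a change in RNA per cell cannot be told apart from a change in the share of cells that express a gene.

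**Figure D1:**
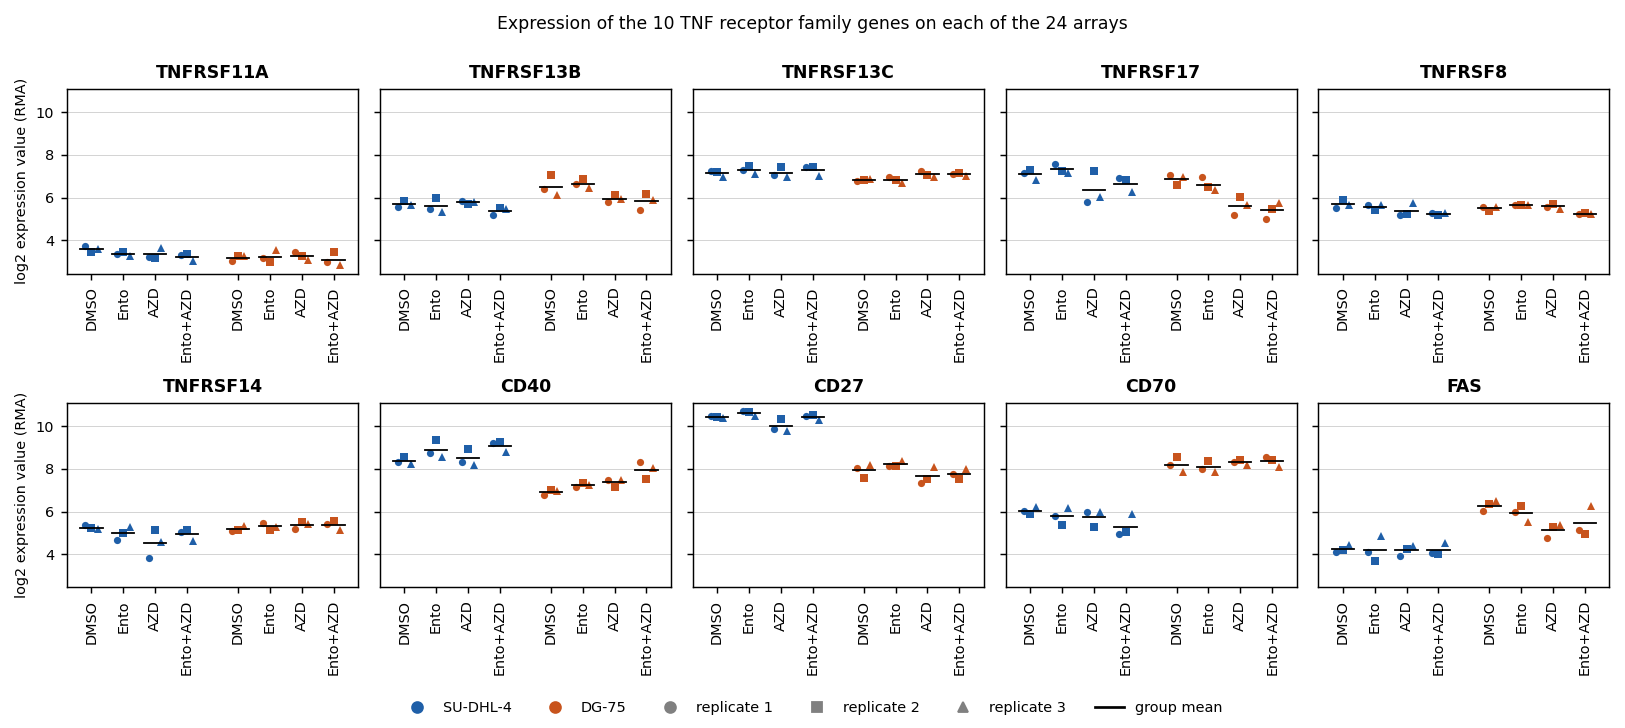
Log2 expression values (y axis) of the 10 genes on all 24 arrays, by exposure (x axis), for SU-DHL-4 in blue and DG-75 in orange. Marker shapes give the replicate number and bars the mean of 3 arrays. CD27 and CD40 lay higher in SU-DHL-4 and CD70 and FAS higher in DG-75 under every exposure; heights are not comparable between genes, since probes differ.

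The clearest differences in the family lay between the lines themselves. Under DMSO, SU-DHL-4 had more CD27 and CD40 transcript and DG-75 had more CD70 and FAS. These 4 of 10 members were called, beside 7.2% of all rows in this comparison (1842 rows), and 7 had an unadjusted p under 0.05, beside 27.6% of rows. The receptor CD27 and its ligand CD70 thus differed in opposite directions.

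CD27 read 10.49, 10.44 and 10.37 on the DMSO arrays of SU-DHL-4 and 8.05, 7.59 and 8.19 on those of DG-75. All 3 values of SU-DHL-4 were above all of DG-75, and the difference of 2.49 (SE 0.187, 5.61-fold, adjusted p of limma 6.2e-10) was many times the spread within either group. CD70 read 6.02, 5.89 and 6.21 in SU-DHL-4 and 8.20, 8.57 and 7.83 in DG-75. It was 4.48-fold lower in SU-DHL-4 (log2 difference -2.16, SE 0.252, adjusted p 7.41e-07), again with no overlap. CD40 stood at 8.38 ± 0.17 in SU-DHL-4, compared with 6.92 ± 0.12 in DG-75 (SD, n = 3 arrays each), a 2.75-fold difference (1.46, SE 0.219, limma adjusted p 2.54e-05). FAS stood at 4.25 ± 0.17 in SU-DHL-4, compared with 6.28 ± 0.22 in DG-75 (SD, n = 3 arrays each) and was 4.09-fold lower in SU-DHL-4 (-2.03, SE 0.299, limma adjusted p 2e-05). Without a detection value, FAS in SU-DHL-4 is not known to lie above background, which leaves the size of that fold uncertain. Within each of the 4 exposures, all arrays of one line lay above all arrays of the other for CD27, CD70, CD40 and FAS. The lowest CD27 value of SU-DHL-4 on any array, 9.77, exceeded the highest of DG-75, 8.37.

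**Figure D2:**
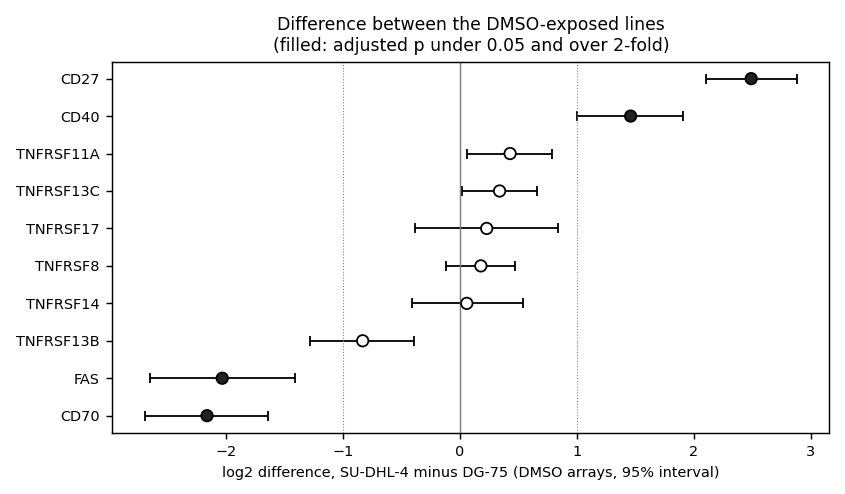
Log2 difference of each member between the DMSO arrays of the lines (x axis, SU-DHL-4 minus DG-75), with 95% intervals from limma. Filled points were called; CD27 (2.49) and CD40 (1.46) lay to the right, CD70 (-2.16) and FAS (-2.03) to the left, and the intervals of TNFRSF17, TNFRSF8 and TNFRSF14 held 0.

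The receptors for BAFF and APRIL were closer between the lines. TNFRSF13B was 1.78-fold lower in SU-DHL-4 (-0.83, SE 0.215, adjusted p of limma 0.00741), which passed the p threshold but not the 2-fold minimum, and it depended on DG-75 DMSO replicate 2, without which it was -0.57 (adjusted p 0.0702); without DG-75 DMSO replicate 3 it was -1.03 and called (adjusted p 0.00252). TNFRSF13C (0.34, 95% interval 0.02 to 0.66, adjusted p 0.149) and TNFRSF17 (0.23, interval -0.38 to 0.84) did not pass. Neither did TNFRSF11A (0.43, adjusted p 0.107), TNFRSF8 (0.18) and TNFRSF14 (0.06). The intervals of TNFRSF13C, TNFRSF8, TNFRSF11A, TNFRSF14 and TNFRSF17 left no room for a 2-fold difference in either direction.

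Among exposures, TNFRSF17 (BCMA), a receptor typical of plasma cells and plasmablasts, fell in DG-75 under Ento+AZD. The DMSO arrays of DG-75 read 7.05, 6.60 and 6.99 and the Ento arrays 6.96, 6.51 and 6.34. The AZD arrays read 5.20, 6.03 and 5.67 and the Ento+AZD arrays 5.01, 5.47 and 5.74. Every array that received AZD, alone or in combination, lay below every array that did not. TNFRSF17 was 2.77-fold lower under Ento+AZD than under DMSO (-1.47, SE 0.261, 95% interval -2.05 to -0.90, adjusted p of limma 0.0215) and 2.29-fold lower than under Ento (-1.20, SE 0.261, adjusted p 0.0481). Under AZD alone it changed by -1.24 (SE 0.261), with an adjusted p of 0.0693 that missed the threshold. Ento+AZD and AZD differed by -0.23 (interval -0.80 to 0.35). The array mean of 4 plasma cell markers (SDC1, PRDM1, XBP1, IRF4) was 5.38 to 5.73 under DMSO and 5.32 to 5.58 under Ento+AZD in DG-75, with IRF4 lower (-0.81, adjusted p 0.0403) and XBP1 higher (0.67, adjusted p 0.0258), both short of 2-fold, and their part in the TNFRSF17 result was not tested.

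With all arrays, TNFRSF17 and CD40 were the 2 of 10 members called in DG-75 between Ento+AZD and DMSO, beside 0.833% of all rows (213 rows), and TNFRSF17 was the 1 member called between Ento+AZD and Ento, beside 0.657% (168 rows). The call against DMSO was lost without DMSO replicate 1 (-1.31, adjusted p of limma 0.174), DMSO replicate 2 (-1.67, 0.0526), DMSO replicate 3 (-1.44, 0.0831), Ento+AZD replicate 1 (-1.26, 0.147) or Ento+AZD replicate 2 (-1.50, 0.0682), so the size of the fall held where the adjusted p did not. The call against Ento for TNFRSF17 was lost without any single Ento+AZD array or without Ento replicate 1 or 2 (-1.38 to -0.91, adjusted p 0.0637 to 0.271). Over all rows, the 168 calls between Ento+AZD and Ento became 0 without Ento+AZD replicate 1 or Ento replicate 1, and 389 without Ento replicate 3.

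In SU-DHL-4 the same transcript varied widely between the AZD replicates. TNFRSF17 read 7.18, 7.30 and 6.85 under DMSO, 5.82, 7.23 and 6.05 under AZD and 6.91, 6.83 and 6.25 under Ento+AZD. AZD replicate 2 lay among the DMSO arrays while the other AZD arrays lay below all of them. The change under AZD was -0.74 (SE 0.261, adjusted p of limma 0.301); without AZD replicate 2 it was -1.13 with an adjusted p of 0.0433. TNFRSF17 changed by -0.44 under Ento+AZD (adjusted p 0.5). Of the plasma cell markers, XBP1, a transcription factor of antibody secretion, was called there (1.25, SE 0.196, adjusted p 0.00811, and in 9 of 12 alternative analyses), while SDC1, PRDM1 and IRF4 changed by -0.15 to 0.15 and did not pass. The array mean of the 4 markers was 4.32 to 4.39 under DMSO and 4.42 to 4.8 under Ento+AZD, and their part in the TNFRSF17 values was not tested. Its Ento+AZD change differed between the lines by 1.03 (SE 0.4, adjusted p 0.628), which did not pass the test.

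TNFRSF13B (TACI) in DG-75 passed the p threshold between the combination and Ento alone with all arrays. It read 6.66, 6.87 and 6.44 under Ento and 5.44, 6.16 and 5.89 under Ento+AZD, without overlap, a difference of -0.83 (SE 0.172, 1.77-fold, adjusted p of limma 0.0401) that stayed under the 2-fold minimum. The adjusted p was 0.0934 without the replicate number in the model, 0.0824 after quantile normalization and 0.0788 after subtraction of array medians. It was 0.0532 to 0.251 when any Ento+AZD array or Ento replicate 1 or 2 was left out, and 0.0475 without Ento replicate 3. The DMSO arrays read 6.39, 7.04 and 6.13 and overlapped with the Ento+AZD arrays, and that change was -0.69 (adjusted p 0.0628). Under AZD alone it was -0.57 (adjusted p 0.158). In SU-DHL-4 the TNFRSF13B changes against DMSO lay between -0.30 and 0.10 and none had an adjusted p under 0.05. TNFRSF13C (BAFF-R), the receptor that carries the BAFF survival signal, had an adjusted p under 0.05 under no exposure. Its 6 changes against DMSO lay between 0.00 and 0.29, the latter in DG-75 under Ento+AZD (interval 0.00 to 0.57, adjusted p 0.313).

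CD40 rose in DG-75 under Ento+AZD. The DMSO arrays read 6.79, 7.02 and 6.95, the Ento arrays 7.17, 7.32 and 7.22, the AZD arrays 7.49, 7.13 and 7.46 and the Ento+AZD arrays 8.31, 7.53 and 8.04. All 9 arrays with an inhibitor lay above the DMSO arrays, and the Ento+AZD arrays lay above all others. The rise was 1.04 (SE 0.184, 95% interval 0.64 to 1.45, 2.06-fold, adjusted p of limma 0.0215). The single agents gave 0.32 for Ento (adjusted p 1) and 0.44 for AZD (adjusted p 0.321), neither past the threshold. The combination exceeded Ento by 0.72 (adjusted p 0.0813) and AZD by 0.60 (SE 0.184, unadjusted p 0.00736, adjusted p 1), a comparison in which 0% of rows were called. 2 members had an unadjusted p under 0.05 there, beside 4.03% of all rows.

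The CD40 call in DG-75 was lost without DMSO replicate 1 (0.91, adjusted p of limma 0.174), DMSO replicate 3 (1.03, 0.0801), Ento+AZD replicate 1 (0.85, 0.142) or Ento+AZD replicate 3 (1.02, 0.0558). B cell markers moved beside it: their array mean was 8.89 to 9.19 under DMSO, 8.88 to 9.27 under Ento, 9.39 to 9.56 under AZD and 9.38 to 9.8 under Ento+AZD. Of the 5 markers, CD79B, a chain of the B-cell receptor, was called under Ento+AZD (1.03, SE 0.187, adjusted p of limma 0.0227), and in 7 of 12 alternative analyses (adjusted p up to 0.174). The changes of the others did not pass the test, with 0.52 for MS4A1 (adjusted p 0.361), 0.44 for CD79A (0.147), 0.42 for CD22 (0.135) and 0.12 for PAX5 (0.772). Their part in the CD40 result was not tested.

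In SU-DHL-4, CD40 read 8.33, 8.57 and 8.24 under DMSO and 9.20, 9.27 and 8.77 under Ento+AZD. The groups did not overlap, and the difference of 0.70 (SE 0.154, 95% interval 0.37 to 1.04, 1.63-fold) had an adjusted p of limma of 0.0347, short of the 2-fold minimum. Ento alone gave 0.50 (adjusted p 0.417) and AZD alone 0.11 (adjusted p 0.845). Without the replicate number in the model the adjusted p of the Ento+AZD change was 0.23, and it lay between 0.0777 and 0.211 when any 1 of the 6 arrays was left out. The Ento+AZD changes of the lines differed by -0.34 (interval -0.84 to 0.16, adjusted p 0.875).

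**Figure D3:**
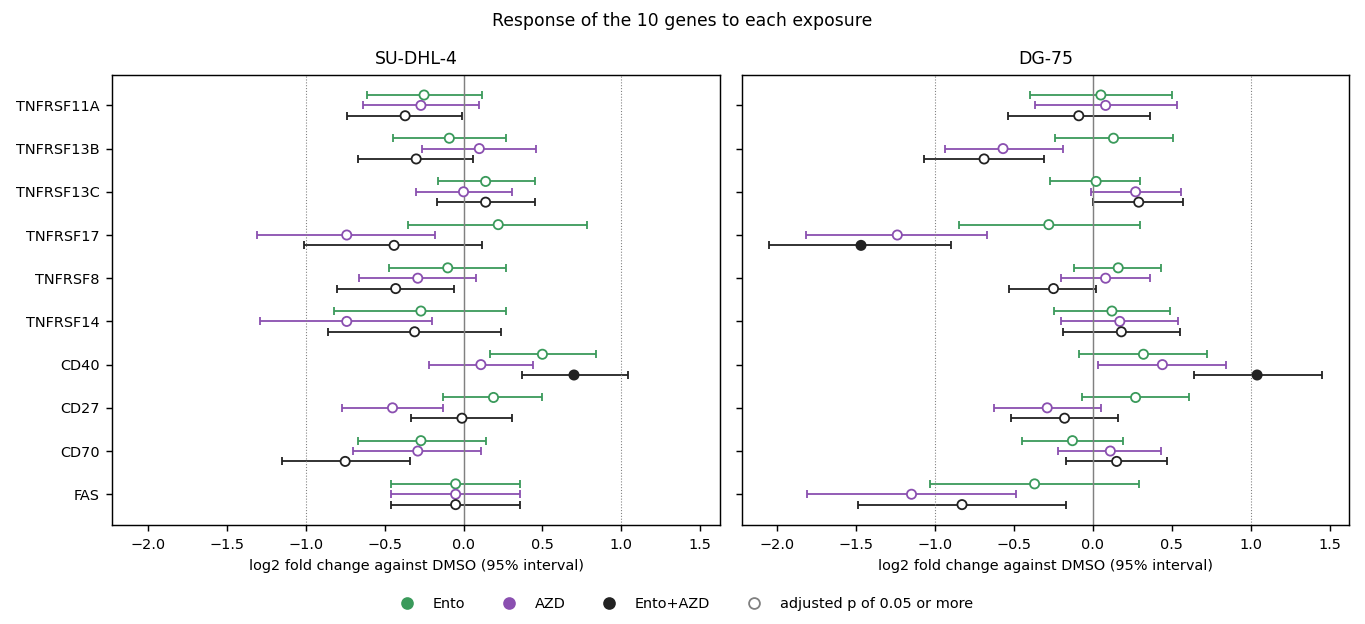
Log2 fold change of each member against DMSO (x axis) in SU-DHL-4 (left) and DG-75 (right), with 95% intervals from limma, for Ento (green), AZD (purple) and Ento+AZD (black). Filled points had an adjusted p under 0.05 and dotted lines mark 2-fold; only the Ento+AZD points of CD40 (0.70 and 1.04) and, in DG-75, TNFRSF17 (-1.47) are filled.

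CD27 and CD70 were called under no exposure. CD27 in SU-DHL-4 read 10.49, 10.44 and 10.37 under DMSO and 9.86, 10.31 and 9.77 under AZD, lower on all 3 AZD arrays, with a change of -0.45 (SE 0.146, unadjusted p 0.00953, adjusted p of limma 0.264). Under Ento+AZD it lay around the DMSO values, at 10.48, 10.52 and 10.26 (-0.01, interval -0.33 to 0.31). CD70 in SU-DHL-4 read 6.02, 5.89 and 6.21 under DMSO and 4.95, 5.04 and 5.89 under Ento+AZD. Replicate 3 lay at the lower edge of the DMSO values and the others about 1 below them. The CD70 change was -0.75 (SE 0.186, 1.68-fold, adjusted p 0.0599). In DG-75 the CD70 change was 0.15 (interval -0.17 to 0.47), and the difference between the lines of -0.90 (SE 0.237) had an unadjusted p of 0.00139 and an adjusted p of 0.276.

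FAS values in DG-75 ran from 4.77 to 6.47 over all exposures. In SU-DHL-4 they stayed between 3.67 and 4.84, below every array median (4.89 to 5.14). Without a detection value, low expression and background cannot be told apart for FAS there. Its 3 changes against DMSO there were each -0.05 (interval -0.46 to 0.36). In DG-75 the DMSO arrays read 6.03, 6.34 and 6.47, the Ento arrays 6.0, 6.24 and 5.49, the AZD arrays 4.77, 5.27 and 5.35 and the Ento+AZD arrays 5.12, 4.96 and 6.28. All AZD arrays lay below all DMSO arrays, whereas Ento+AZD replicate 3 lay within the DMSO range. The AZD change of -1.15 (SE 0.3, 2.22-fold) had an adjusted p of limma of 0.115 and the Ento+AZD change of -0.83 one of 0.194, so FAS was not called. Without Ento+AZD replicate 3 the latter was -1.25 with an adjusted p of 0.047. The AZD changes of the lines differed by 1.10 (SE 0.377, unadjusted p 0.00937, adjusted p 0.634).

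TNFRSF11A (RANK) was called in no comparison of these arrays. The study reports it as significantly lowered by Ento+AZD in SU-DHL-4, from RNA sequencing, which it describes as seemingly more sensitive than the arrays. RNA sequencing values were not read here. On the arrays of SU-DHL-4, TNFRSF11A read 3.76, 3.48 and 3.62 under DMSO and 3.38, 3.47 and 3.27 under Ento. The AZD arrays read 3.22, 3.19 and 3.64 and the Ento+AZD arrays 3.33, 3.35 and 3.06. The Ento and Ento+AZD arrays lay below the DMSO arrays and AZD replicate 3 lay among them. The Ento+AZD change was -0.37 (SE 0.169, 95% interval -0.74 to -0.01, 1.3-fold) with an unadjusted p of 0.0459 and an adjusted p of limma of 0.344. In DG-75 the values ran from 2.84 to 3.56 and the Ento+AZD change was -0.09 (interval -0.54 to 0.36). Without a detection value, low expression and background cannot be told apart for this gene.

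TNFRSF8 (CD30) and TNFRSF14 (HVEM) were called in no comparison. TNFRSF8 under Ento+AZD read 5.27, 5.20 and 5.29 in SU-DHL-4 and 5.24, 5.29 and 5.24 in DG-75, below the DMSO arrays of both lines (5.51 to 5.90 and 5.39 to 5.57). The changes of -0.43 (adjusted p of limma 0.268) and -0.25 (adjusted p 0.361) did not pass the test. TNFRSF14 read 5.36, 5.21 and 5.18 under DMSO in SU-DHL-4 and 3.82, 5.12 and 4.58 under AZD, where the group's SD was 0.65. All AZD arrays lay below the DMSO arrays, AZD replicate 2 only just. That change was -0.74 (SE 0.252, 95% interval -1.29 to -0.20, 1.67-fold, unadjusted p 0.0118, adjusted p 0.28), and it ranged from -1.02 to -0.42 over 12 alternative analyses. The 3 changes of TNFRSF14 in DG-75 lay between 0.12 and 0.18, and its AZD changes differed between the lines by -0.91 (interval -1.59 to -0.23, adjusted p 0.654).

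Over the whole family, the comparisons not yet given held no called member by limma. In SU-DHL-4 the share of all rows called was 0.0508% under Ento, 0.18% under AZD and 1.19% under Ento+AZD (13, 46 and 304 rows; without the replicate number in the model, 45 rows under Ento+AZD), with 0.0821% between Ento+AZD and Ento and 0.0274% for the combination against AZD. The DG-75 shares were 0.00391% under Ento and 0.18% under AZD. The shares under single agents moved far with the analysis. Over the alternatives the called rows numbered 1 to 32 for Ento and 0 to 119 for AZD in SU-DHL-4, and 0 to 155 for AZD in DG-75. Between Ento+AZD and Ento they numbered 0 to 107 in SU-DHL-4 and 0 to 389 in DG-75. The AZD calls fell to 0 when any 1 array of DG-75 DMSO or AZD was left out, and in SU-DHL-4 when any array but AZD replicate 2 was, without which they numbered 119. With all arrays kept, subtraction of array medians also took the AZD calls of both lines to 0. Quantile normalization left 0 AZD calls for SU-DHL-4 and 2 for DG-75. Members were also counted at an unadjusted p under 0.05. In SU-DHL-4 there was 1 such member under Ento, beside 8.59% of all rows, 3 under AZD, beside 11.5%, and 4 under Ento+AZD, beside 14%. Between Ento+AZD and Ento there were 2, beside 9.67% of rows, and 4 when the combination was set against AZD, beside 7.03%. For DG-75 the counts were 0 under Ento, beside 2.81%, 4 under AZD, beside 13.8%, 4 under Ento+AZD, beside 16%, and 5 between Ento+AZD and Ento, beside 14.8%. With 10 members, 1 or 2 at such a p is close to these shares. Tests of a difference between the lines in the response called no member for Ento, AZD or Ento+AZD, while 0.00782%, 0% and 0.0352% of rows were called. At an unadjusted p under 0.05 there were 0, 3 and 2 members, beside 4.43%, 6.16% and 6.51% of rows. The median change of the members under Ento+AZD was -0.31 in the DLBCL line and -0.13 in the BL line, beside -0.08 and -0.07 over all rows. These medians depended on the scaling: that of the members was -0.17 and -0.03 after quantile normalization and -0.18 and -0.05 after subtraction of array medians. The latter also moved the median of all rows in SU-DHL-4 by 0.13.

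Ligands and partners of the family were read from the same arrays. TNFSF8 (CD30 ligand) read 7.28 to 8.72 in SU-DHL-4 and 7.49 to 8.71 in DG-75, and TNFSF11 (RANK ligand) 1.93 to 3.07 and 2.17 to 2.87, values that are not comparable between genes. Of 11 ligands and partners, 1 was called under an exposure, in a comparison with 0.0508% of all rows called. LTB, the membrane subunit of lymphotoxin, rose in SU-DHL-4 under Ento by 1.02 (SE 0.151, adjusted p of limma 0.0413). Under Ento+AZD in SU-DHL-4 its change was 0.42 (adjusted p 0.215), and the combination differed from Ento by -0.6 (adjusted p 0.149). With Ento+AZD in DG-75, LTB was higher by 0.93 (SE 0.137, adjusted p 0.0162), short of 2-fold. The LTB rise under Ento in SU-DHL-4 was called in 4 of 12 alternative analyses, with changes from 0.92 to 1.14. BTLA, the partner of TNFRSF14, was not called (-0.84 in SU-DHL-4 under Ento+AZD, adjusted p 0.203).

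Signaling components below the receptors differed between the lines, as did 7.2% of all rows. Under DMSO, 2 of 17 adaptors and death domain proteins were called, both lower in SU-DHL-4: TRAF3, which restrains non-canonical NF-kB signaling (-1.19), and BIRC3 (-1.75, adjusted p of limma 1.06e-05). Of 14 NF-kB subunits, kinases and inhibitors 4 were called. REL was higher in the former (1.33, adjusted p 3.26e-08), and NFKB2 (-1.16), NFKBIA (-2.02) and TNFAIP3 (-2.25), the latter both inhibitors of the pathway and its targets, were lower. Of 19 other TNF receptors, EDA2R (2.73) and the decoy receptor TNFRSF10D (2.08) were higher in SU-DHL-4 and TNFRSF1A (-1.50) lower. Of 15 NF-kB targets, 3 were higher in SU-DHL-4 (BCL2A1 1.24, CD86 1.56, MAP3K8 1.02) and 2 lower (CD80 -2.53, IRF4 -2.24). List medians were 0.11, -0.29, 0.17 and 0.38, in the order named, beside 0.01 over all rows.

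Under exposure, calls among these genes stood beside 0.18% of all rows called under AZD in either line. Under Ento+AZD the shares were 1.19% (SU-DHL-4) and 0.833% (DG-75). The AZD share fell to 0 without single arrays, and it also moved with the scaling. With all arrays kept, SU-DHL-4 went from 46 AZD calls (0 higher) to 0 after quantile normalization and after subtraction of array medians. DG-75 went from 46 (4 higher) to 2 and 0. The trended robust prior raised the calls to 105 for SU-DHL-4 and 155 for DG-75. Where a line's count was 0, no gene named below was called under AZD in it. In SU-DHL-4, CFLAR, which blocks caspase 8 at death receptors, fell under AZD (-1.14, SE 0.171, adjusted p of limma 0.0325). CFLAR was not called there under Ento+AZD, with a mean of 7.58 beside 8.2 under DMSO. BCL2A1, an anti-apoptotic NF-kB target, fell in SU-DHL-4 under Ento+AZD (-1.09, SE 0.182, adjusted p 0.0112). TRAF1 was lower under Ento+AZD in SU-DHL-4 (-0.89, adjusted p 0.0387), short of 2-fold, and SLAMF1 there was lower under Ento+AZD than under AZD (-1.58, adjusted p 0.0303). Against DMSO, SLAMF1 changed by 0.72 under AZD (adjusted p 0.216) and by -0.86 under Ento+AZD (adjusted p 0.0595), neither past the threshold. In DG-75 the costimulatory ligand CD80 fell under AZD (-1.60, SE 0.236, adjusted p 0.0471) and under Ento+AZD (-1.48, adjusted p 0.0196), and was also lower under Ento+AZD than under Ento (-1.58, adjusted p 0.0199). CCR7, a lymph node homing receptor, rose under Ento+AZD in DG-75 (1.37, SE 0.186, adjusted p 0.0162) although the groups overlapped, and without the replicate number in the model its adjusted p was 0.125. Its Ento+AZD response differed between the lines (-1.94, SE 0.279, adjusted p 0.0126), with an adjusted p of 0.444 without that term. Alternative analyses called CFLAR in 5 of 12, BCL2A1 in 6 of 12, SLAMF1 in 5 of 11, CD80 under AZD in 4 of 12 (adjusted p up to 0.364), CD80 under Ento+AZD in 8 of 12 and CCR7 in 8 of 11. No NF-kB subunit, kinase or inhibitor and no other TNF receptor was called by limma under an exposure. Under Ento+AZD 1 of 14 and 4 of 19 of them had an unadjusted p under 0.05 in SU-DHL-4, beside 14% of all rows, and 3 of 14 and 0 of 19 in DG-75, beside 16%. In SU-DHL-4 the counts of the other lists were 6 of 15 NF-kB targets, 3 of 11 ligands and partners and 2 of 17 adaptors and death domain proteins. In DG-75 they were 6 of 15, 5 of 11 and 1 of 17.

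**Figure D4:**
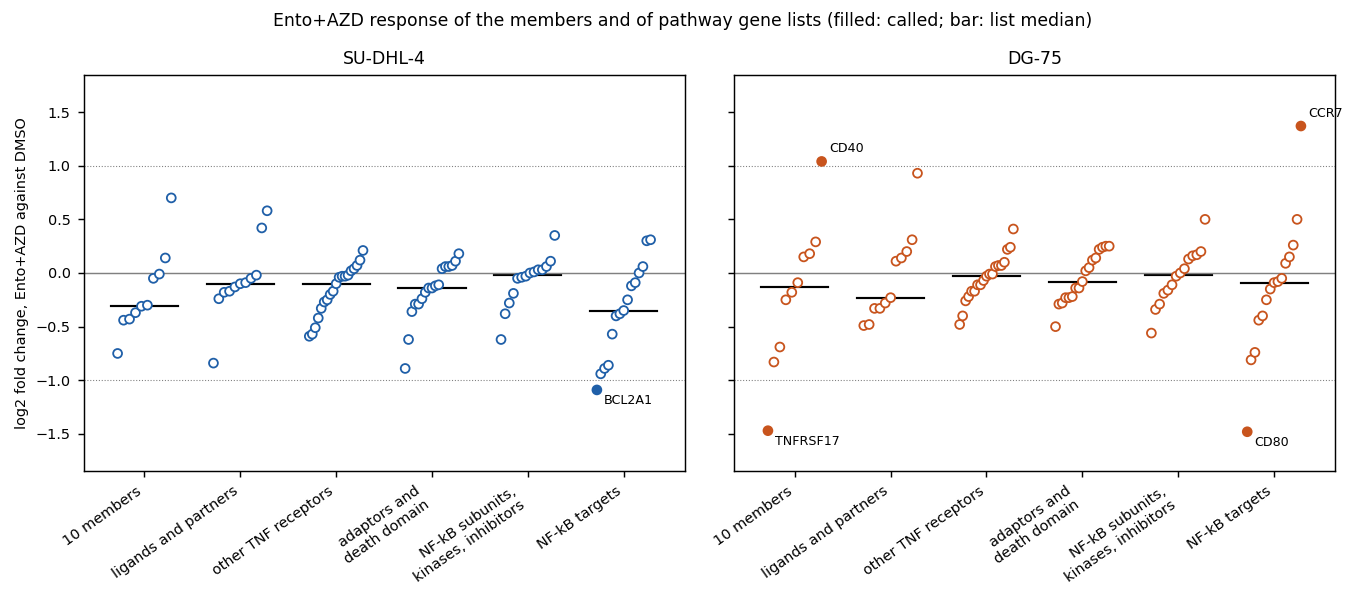
Log2 fold change under Ento+AZD against DMSO (y axis) for the 10 members and for 5 lists of pathway genes (x axis), in SU-DHL-4 (left) and DG-75 (right). Each point is a gene, filled where called, and bars are list medians; the called genes were BCL2A1 in SU-DHL-4 and CD40, TNFRSF17, CCR7 and CD80 in DG-75.

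Similarity to TNFRSF11A and to the members called between exposures (TNFRSF17 and CD40) was described over all 24 arrays after each line's mean was removed, so the points share the exposures and replicate numbers, and it has no test. PTPN22 (Pearson r = 0.933), SLC16A6 (0.909) and DOK3 (0.905) ran most like TNFRSF17. TTLL3 (0.885), BLCAP (0.873) and TAGAP (0.858) ran most like CD40, and PRR25 (0.801), TTYH1 (0.768) and TRPM4 (0.767) most like TNFRSF11A. Among the members themselves over the 12 arrays of a line, CD40 and CD70 had an r of -0.888 in SU-DHL-4 but 0.295 in the BL line, and CD40 and TNFRSF17 one of -0.813 in DG-75 but 0.357 in the DLBCL line. These pairs were chosen after their values were seen.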

How the data were processed

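Clariom D arrays of both lymphoma lines were analyzed from 1 deposited table of log2 expression values. The authors normalized the arrays by robust multi-array average (RMA), which corrects background, equalizes probe intensities between arrays and summarizes probes as log2 values, and mapped probes to gene symbols. Genome build and annotation version are not given in the sources used here, and rows could not be traced to probes. 0 columns of sample values were left unused. The sample labels gave the group and replicate number of each array.

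Moderated linear models were fitted with limma 3.58.1 under R 4.3.3, using its default settings. Exposures were compared within each line over its 12 arrays, with the replicate number as a block because the study's model has a batch term; that batch is not defined in the sources used here, and the labels do not say that a replicate number marks one. The lines were compared under DMSO in 1 fit of all 24 arrays without a block, and differences in response in 1 fit with the replicate number within each line. P-values were Benjamini-Hochberg adjusted over 25575 rows and intervals are 95%. The analysis was tested on simulated data. All 10 members are named; of 5 pathway lists (ligands and partners, other TNF receptors, adaptors and death domain proteins, NF-kB components, NF-kB targets) the called genes and at most 4 with the smallest p, and the 3 genes most similar to TNFRSF11A and to each member called between exposures. Plasma cell, B cell, T cell, NK cell and monocyte markers were read beside them; 1 marker gene is not reported here. The members and lists were chosen with earlier results of these data known. Alternatives were fits with or without the block, other sets of arrays, quantile normalization, median subtraction, omission of low rows, a trended robust prior, no fold minimum and omission of each array.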

Additional observations from a re-analysis of the deposited data

How the results depend on the processing

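Members with an unadjusted p under 0.05 were followed over 511 alternative values, of which 15 lost a call and 8 gained one. None of these and none of 552 values of list genes changed sign (0 reversed), but members and genes were followed for their small p, so few could. In SU-DHL-4 the number of members called under AZD was 0 to 1 when single arrays were left out (1 without AZD replicate 2), and without a minimum fold change 1 member, CD40, passed under Ento+AZD. In DG-75 under AZD, 2 members (TNFRSF17 and FAS) were called in 1 fit of all 24 arrays, 2 with the trended robust prior and 1 with low rows left out, which tests fewer rows. In DG-75 under Ento+AZD the 2 calls became 0 to 2 when single arrays were left out, and no such omission kept both TNFRSF17 and CD40. The count of 2, without Ento+AZD replicate 3, came from TNFRSF17 and FAS. Between Ento+AZD and Ento the 1 call became 0 with array medians subtracted, 2 with no minimum fold change and 0 to 1 when single arrays were left out. The cause was not tested, beyond fewer arrays or rows. Same-numbered arrays deviated together at correlations of -0.111 to 0.394 in SU-DHL-4 and -0.355 to 0.344 in DG-75 (18 pairs each), with medians of 0.15 and 0.0405 beside -0.0694 and -0.0138 for arrays of other numbers, so the numbers were not shown to pair all samples. Without the replicate block, 2 members were still called in DG-75 under Ento+AZD, and with a replicate block 4 between the lines; the block changed no number of called members. It did change calls over all rows, from 304 to 45 in SU-DHL-4 and from 213 to 208 in DG-75 under Ento+AZD without it. Over all alternatives those counts were 45 to 350 and 0 to 272, against 1301 to 1926 between the lines (1842 reported). Signal over background was not available, so no value, such as those of TNFRSF11A and of FAS in SU-DHL-4, has a detection limit.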
